A study of Homo sapiens with 27 samples.

Results

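The genes described are 10 components of the extracellular matrix protease system: the matrix metalloproteinases MMP1, MMP2, MMP3, MMP9, MMP10, MMP13 and MMP14, and the tissue inhibitors of metalloproteinases TIMP1, TIMP2 and TIMP3. They were taken by symbol, as a named list chosen with earlier results of these data known. Each matched exactly 1 of the 40487 rows of the deposited table. All 10 were among the 16611 rows with enough counts to be tested. MMP1, MMP3 and MMP10 were among them only through groups given a ligand. MCF10A, a non-tumorigenic human mammary epithelial line, was expanded with serum and epidermal growth factor (EGF) at 20 ng/ml, plated on collagen-1, and held for 18 h in medium free of growth factors. It then received EGF, oncostatin M (OSM) or transforming growth factor beta (TGFB) at 10 ng/ml each, singly, in the 3 pairs or all together, for 24 h, or phosphate-buffered saline (PBS) for 24 h as control. T0 cells were collected at 0 h with no treatment. Each of these 9 groups had 3 polyA RNA-seq libraries, 27 in all, from 1 cell line. The series asks whether combined signals act as the sum of single ones. Nothing in the labels says whether replicates were separate cultures, so p-values measure the spread between these libraries, which may be technical.

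Metalloproteinases are zinc-dependent endopeptidases that are made as inactive zymogens and cut matrix proteins, growth factors and cell-surface receptors. Collagenases open the triple helix of fibrillar collagen, gelatinases degrade the unwound chains and basement-membrane collagen, stromelysins cleave proteoglycans, laminin and fibronectin and activate other zymogens, and membrane-type enzymes act at the cell surface. TIMPs bind the active site and block it, though not every TIMP inhibits every enzyme equally. In the mammary gland these proteins take part in branching and involution, and their transcription is known to respond to growth factor, cytokine and TGFB signalling. The values here are RNA levels and say nothing of zymogen activation or enzyme activity.

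The libraries held between 30.1 and 52.9 M (mega) counts each (median 39.5 M), and levels are given in counts per 1 M scaled counts (CPM). The biological coefficient of variation over all rows was 10.1%. All 10 markers of mammary epithelium, basal or general (KRT5, KRT14, KRT17, TP63, CDH1, CDH3, ITGB4, EGFR, EPCAM and SFN), averaged over 1 CPM across the 27 libraries. Of 10 fibroblast markers, 5 averaged over 1 CPM across the 27 libraries (COL1A1, DCN, FAP, COL6A3 and TWIST2), while no group mean of COL3A1, PDGFRA, LUM or THY1 exceeded 0.276 CPM. PDGFRB, the remaining marker, averaged 1 CPM or less across the libraries. Of the 10, 7 had enough counts to be tested. Of 10 markers of blood cells and endothelium, PTPRC, LYZ, CD3E, MS4A1 and CDH5 had no group mean above 0.0843 CPM, while 3 averaged over 1 CPM across the libraries (CD68, CD14 and KDR). PECAM1 and VWF, the remaining markers, averaged 1 CPM or less across the libraries. Of these 10 markers, 5 had enough counts to be tested. In a bulk sample, fewer cells of a type and less RNA per cell cannot be told apart.

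Of the metalloproteinase genes, 4 lie in one stretch of chromosome 11, all on the minus strand, in the order MMP10 (chr11:102770502-102780628), MMP1 (chr11:102789401-102798160), MMP3 (chr11:102835801-102843609) and MMP13 (chr11:102942995-102955732), within 185.2 kb (GRCh38, GENCODE annotation, whole gene span). The others are dispersed, at chr16:55389700-55506691 for MMP2, chr20:46008908-46016561 for MMP9, chr14:22836560-22849041 for MMP14, chrX:47582408-47586789 for TIMP1, chr17:78852977-78925387 for TIMP2 and chr22:32801705-32863041 for TIMP3. MMP3 and MMP10 are the pair of members whose transcripts share any 31-base sequence: 125 of them, 6.75% of those of MMP3 and 7.11% of those of MMP10, so reads from these stretches could be assigned to either. Exons of MMP1 and MMP3 overlap the opposite-strand pseudogene WTAPP1, those of MMP9 overlap the opposite-strand SLC12A5-AS1, and those of TIMP2 overlap CEP295NL on the same strand. Those of MMP2 overlap a gene without a symbol on the same strand. Those of TIMP2 also overlap an opposite-strand long non-coding RNA without a symbol. The libraries were stranded, but whether strand was used in counting is not given in the sources used here, so reads from such partners cannot be told apart.

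The RefSeq promoter table (GRCh38.p14, 250 bases before to 50 after the start of transcription) holds windows for 4 of the 10 members, MMP10, MMP14, TIMP1 and TIMP3. They were searched on both strands for an AP-1 site (TGANTCA), a STAT site (TTCNNNGAA) and a SMAD-associated CAGACA element, motifs bound by factors that act downstream of EGF, OSM and TGFB. Over all 35116 windows of the table, 7.71% hold the AP-1 letters, 7.66% the STAT letters and 16.9% the SMAD letters. Among the 4 member windows there was 1 match, an AP-1 site at -67 of MMP10, which reads the same motif on both strands. The windows of MMP10, of TIMP1, the inhibitor that rose most with OSM, and of TIMP3, which fell with OSM, are given from 5′ to 3′ on the gene's own strand, with the AP-1 match in capitals. MMP10 (chr11:102780579-102780878, minus strand) is 36.3% GC, TIMP1 (chrX:47582186-47582485, plus strand) 65% and TIMP3 (chr22:32801455-32801754, plus strand) 72.7%. A match is a description of the letters and not a shown binding site, and the lack of one says nothing of other sequences.
MMP10: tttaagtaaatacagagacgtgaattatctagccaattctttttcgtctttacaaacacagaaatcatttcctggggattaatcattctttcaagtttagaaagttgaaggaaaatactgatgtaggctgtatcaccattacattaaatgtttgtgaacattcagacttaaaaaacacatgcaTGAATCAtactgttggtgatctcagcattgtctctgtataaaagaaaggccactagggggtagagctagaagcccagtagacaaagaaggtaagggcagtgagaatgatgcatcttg
TIMP1: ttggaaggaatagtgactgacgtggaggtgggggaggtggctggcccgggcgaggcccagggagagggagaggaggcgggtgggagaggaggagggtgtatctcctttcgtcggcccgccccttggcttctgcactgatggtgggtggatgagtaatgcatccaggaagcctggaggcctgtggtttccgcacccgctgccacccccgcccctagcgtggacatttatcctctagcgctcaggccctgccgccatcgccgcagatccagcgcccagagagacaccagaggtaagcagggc
TIMP3: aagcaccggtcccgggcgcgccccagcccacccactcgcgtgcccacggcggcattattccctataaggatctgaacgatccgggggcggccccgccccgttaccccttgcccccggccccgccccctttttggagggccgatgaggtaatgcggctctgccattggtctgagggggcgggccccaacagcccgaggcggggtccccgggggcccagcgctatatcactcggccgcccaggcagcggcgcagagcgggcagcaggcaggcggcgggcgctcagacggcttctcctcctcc

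The membrane-type enzyme and the inhibitors made up nearly all of the RNA of these 10 genes, and the secreted proteases were scarce. Levels were compared between genes per length, as CPM per kb of the canonical transcript. In PBS, MMP14 stood at 106 ± 3.39 CPM per kb (SD, n = 3), next to TIMP1 at 199 ± 4.85, TIMP3 at 181 ± 8.62 and TIMP2 at 58.2 ± 0.671. MMP2 and MMP9 reached only 3.27 ± 0.456 and 2.65 ± 0.835 CPM per kb, MMP13 0.283 ± 0.0622 and MMP10 0.037 ± 0.0304. MMP3 had 1 count over the 3 PBS libraries and MMP1 had none, so both were at the floor of detection there (3 counts over a group). From PBS to its highest group, MMP3 went to 36.9 ± 8.09 CPM per kb, MMP9 to 44.6 ± 5.37 and MMP10 to 13.2 ± 4.42, while MMP14 went to 298 ± 9.45 and TIMP1 to 3869 ± 446.

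**Figure D1:**
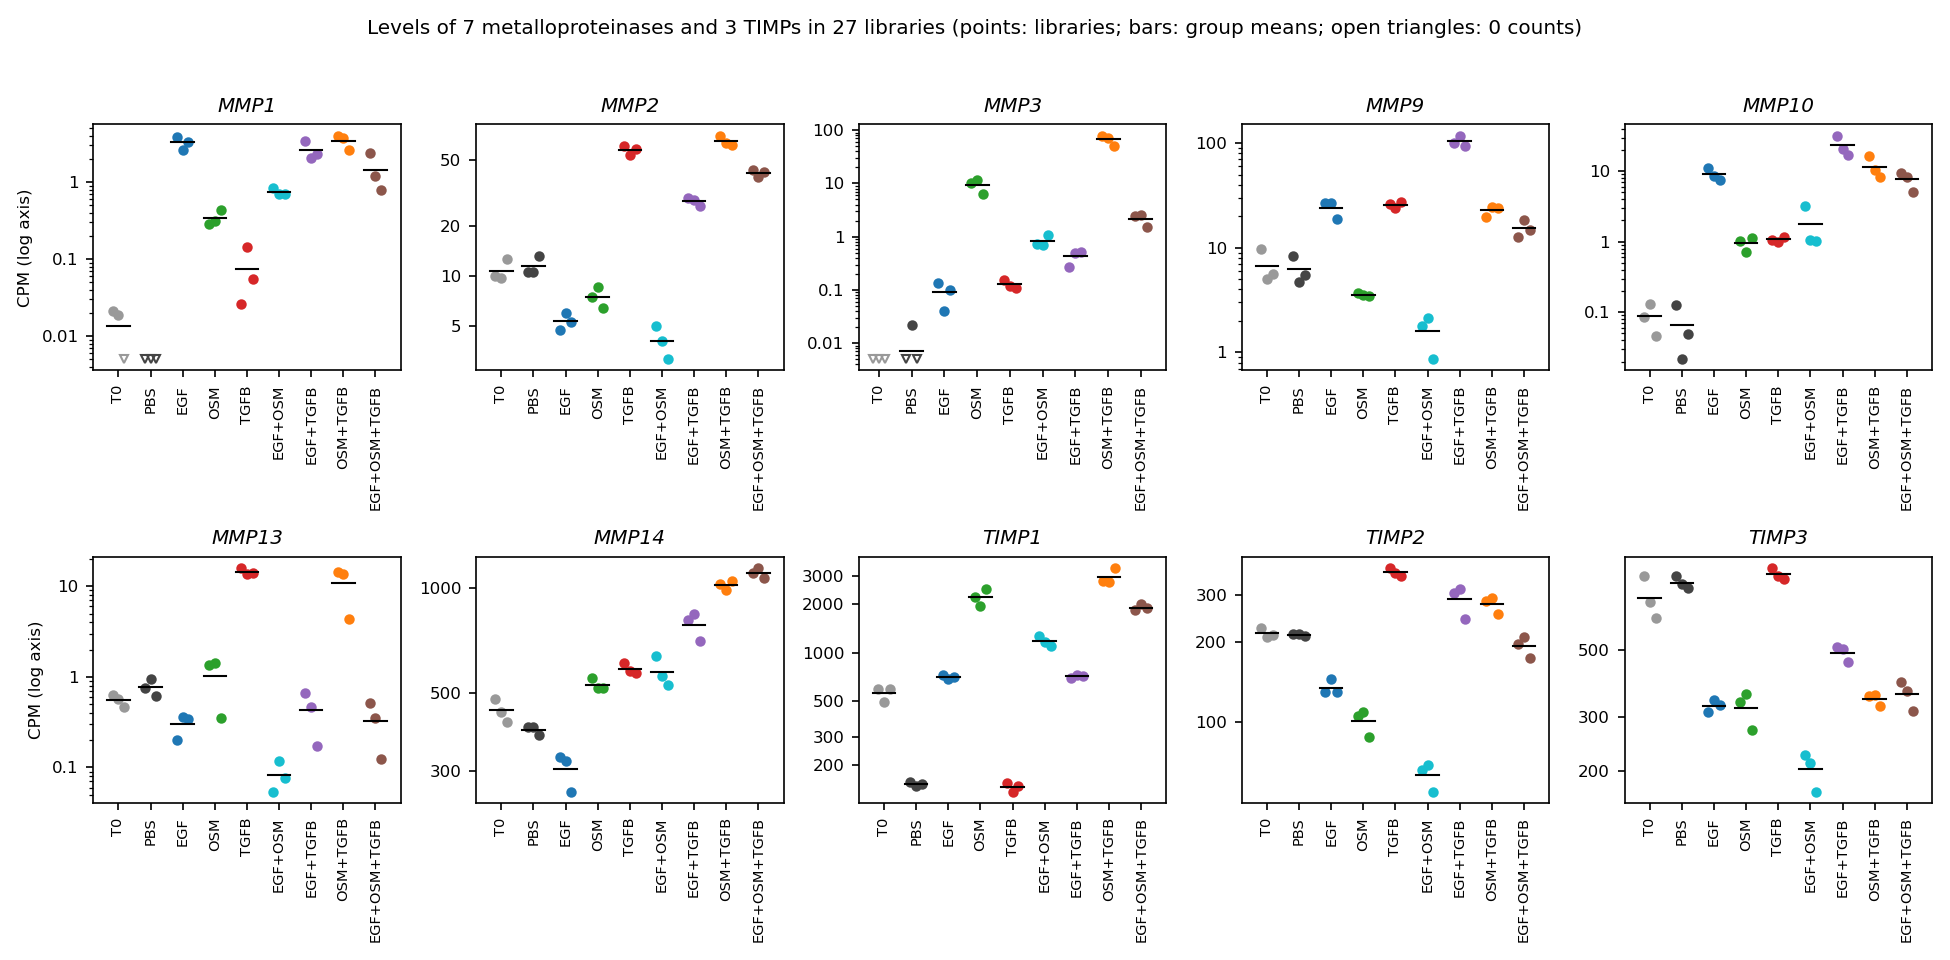
Level of each gene in CPM (log axis, a different range in each panel) in 27 libraries, by group; points are libraries, bars are means of 3 libraries, and open triangles are libraries with 0 counts drawn at the bottom. MMP1 lies at 0 counts in all 3 PBS libraries and MMP3 in 2 of 3, MMP13 is high in the TGFB and OSM+TGFB groups, MMP9 is highest with EGF+TGFB and TIMP1 with OSM+TGFB.

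MMP1 and MMP13 are the interstitial collagenases, and they answered the ligands in different ways. MMP1 was high with EGF and with OSM and TGFB together, and MMP13 with TGFB where EGF was absent. MMP1 had 0, 0 and 0 counts in the PBS libraries and 171, 132 and 137 counts (3.81, 2.64 and 3.35 CPM) in the EGF libraries. That is at least 138-fold higher against the floor of 3 counts over the PBS group (adjusted p = 4.1e-11). OSM alone gave 0.284, 0.31 and 0.432 CPM, at least 14.5-fold higher than PBS, and TGFB alone 0.0261, 0.144 and 0.0547 CPM, at least 3.28-fold higher. Neither single cytokine came near EGF, and the TGFB call rested on 9 counts and on 1 library: without TGFB replicate 2 its adjusted p was 0.0515. Given together, OSM and TGFB raised MMP1 to 4.01, 3.77 and 2.58 CPM, a range that overlapped that of EGF. Adding OSM to TGFB raised it (log2 fold change 5.44 ± 0.46, adjusted p = 1.33e-09) and so did adding TGFB to OSM (log2 fold change 3.33 ± 0.38, adjusted p = 2.04e-07). The size of the first rested on the 9 counts of the TGFB group: it was 6.32 without TGFB replicate 2 and 4.79 with a prior count of 2, a number added to the counts, scaled to library size, before the log. With EGF already there the same cytokines did not add. OSM added to EGF lowered MMP1 to 0.84, 0.698 and 0.708 CPM (log2 fold change -2.12 ± 0.35, adjusted p = 5.07e-05), with no overlap between the groups. TGFB added to EGF left it at 3.44, 2.07 and 2.33 CPM (log2 fold change -0.32 ± 0.32, adjusted p = 0.427), and the 3 ligands together gave 2.35, 1.19 and 0.784 CPM.

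MMP13, a collagenase that prefers type II collagen, was low in PBS at 0.749, 0.947 and 0.611 CPM and rose with TGFB to 16, 13.5 and 14.2 CPM (log2 fold change 4.23 ± 0.46, adjusted p = 1.81e-07). All TGFB libraries lay more than 10 CPM above all PBS libraries. OSM with TGFB gave 14.5, 13.6 and 4.41 CPM, where replicate 3 stood well below the others, and OSM alone gave 1.34, 1.42 and 0.351 CPM, where replicate 3 again was the low one and the group overlapped PBS (log2 fold change 0.43 ± 0.47, adjusted p = 0.45). The high level was not reached with EGF present. EGF with TGFB gave 0.66, 0.466 and 0.171 CPM (log2 fold change -5.02 ± 0.49, adjusted p = 7.32e-09), and EGF added to OSM and TGFB gave 0.514, 0.349 and 0.125 CPM (log2 fold change -4.99 ± 0.51, adjusted p = 5.94e-08). In neither case did the libraries with and without EGF overlap. EGF also lowered MMP13 when added to OSM, to 0.0542, 0.116 and 0.0759 CPM, its lowest level in the series (log2 fold change -3.59 ± 0.67, adjusted p = 8.09e-05). The smaller fall from PBS with EGF alone, to 0.201, 0.36 and 0.342 CPM (log2 fold change -1.35 ± 0.54, adjusted p = 0.0296), lost its call when any 1 of 4 libraries was left out: adjusted p was 0.0503 without PBS replicate 1, 0.0978 without PBS replicate 2, 0.105 without EGF replicate 1 and 0.0502 without EGF replicate 3.

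MMP3 and MMP10, the stromelysins, lie in the same cluster with MMP1 between them. They resemble each other in sequence, yet their highest levels came with different mixtures. MMP3 had 0, 1 and 0 counts in the PBS libraries and none at T0. OSM raised it to 10, 11.4 and 6.46 CPM, a ratio of 1200 (95% counting interval 215 to 47420) to the single PBS count (adjusted p = 6.12e-13). OSM with TGFB took it to 79.1, 72 and 50.7 CPM, above every other library of the series, although TGFB alone gave only 0.157, 0.12 and 0.109 CPM. TGFB thus raised MMP3 further on OSM (log2 fold change 2.85 ± 0.21, adjusted p = 6.82e-10), and OSM raised it on TGFB (log2 fold change 9.0 ± 0.34, adjusted p = 4.8e-15). Both levels were lower with EGF: EGF with OSM gave 0.732, 0.698 and 1.09 CPM (log2 fold change -3.47 ± 0.26, adjusted p = 6.13e-10), and all 3 ligands gave 2.4, 2.54 and 1.5 CPM against the OSM with TGFB group (log2 fold change -4.96 ± 0.24, adjusted p = 4e-12). No library with EGF reached the lowest library of OSM alone. EGF by itself gave 6, 2 and 4 counts, a ratio of 11.2 (95% counting interval 1.67 to 481) to PBS whose call was lost without PBS replicate 1 (adjusted p 0.0876), PBS replicate 3 (0.0882), EGF replicate 1 (0.105) or EGF replicate 3 (0.0597). The TGFB call, on 6, 5 and 4 counts, was lost without PBS replicate 1 (0.0654), PBS replicate 3 (0.0684) or TGFB replicate 1 (0.0585).

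MMP10 was at 0.125, 0.0215 and 0.0489 CPM in PBS and rose to 11, 8.65 and 7.5 CPM with EGF (log2 fold change 7.10 ± 0.59, adjusted p = 5.39e-10). OSM alone gave 1.02, 0.709 and 1.13 CPM (log2 fold change 3.85 ± 0.73, adjusted p = 0.000102) and TGFB alone 1.07, 0.983 and 1.18 CPM (log2 fold change 4.03 ± 0.72, adjusted p = 0.000133). With 8 counts over the PBS group these sizes are loose. Without PBS replicate 1 the log2 fold change of MMP10 with EGF was 7.92, with OSM 4.66 and with TGFB 4.84, and with a prior count of 2 they were 6.33, 3.14 and 3.31. Each single ligand lifted this gene clear of PBS, EGF the furthest. Its highest level came with EGF and TGFB, 32, 20.9 and 17 CPM, where MMP3 was at 0.275, 0.486 and 0.514 CPM. OSM with TGFB brought it to 16.4, 10.3 and 8.21 CPM, overlapping EGF alone. Adding OSM to EGF lowered it to 3.22, 1.05 and 1.01 CPM (log2 fold change -2.38 ± 0.37, adjusted p = 3.62e-05), with replicate 1 above the other two but still below every EGF library, and without that replicate the log2 fold change was -3.13. Adding OSM to EGF and TGFB lowered it as well, to 9.52, 8.4 and 5.14 CPM (log2 fold change -1.60 ± 0.34, adjusted p = 0.00111). Unlike MMP3, the 3-ligand group overlapped the OSM with TGFB group (log2 fold change -0.59 ± 0.34, adjusted p = 0.153).

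MMP2 and MMP9, the gelatinases that degrade denatured collagen and basement-membrane type IV collagen, both rose with TGFB but parted over EGF and OSM. MMP2 was at 10.6, 10.5 and 13.3 CPM in PBS and 60.9, 53.7 and 58.7 CPM with TGFB (log2 fold change 2.33 ± 0.12, adjusted p = 8.62e-13), with no overlap. EGF lowered it to 4.77, 6.01 and 5.33 CPM (log2 fold change -1.09 ± 0.14, adjusted p = 1.51e-07) and OSM to 7.48, 8.59 and 6.4 CPM (log2 fold change -0.61 ± 0.13, adjusted p = 0.000353). The 4 groups with TGFB were the 4 highest and did not overlap the 5 without it. Within them, EGF lowered MMP2: EGF with TGFB gave 29.8, 28.8 and 26.6 CPM (log2 fold change -1.02 ± 0.12, adjusted p = 5.64e-08). The highest group was OSM with TGFB, 70.5, 63.2 and 61.9 CPM, whose libraries lay just above those of TGFB alone, a difference that was not called (log2 fold change 0.18 ± 0.12, adjusted p = 0.206). The summed fibroblast markers were highest in that group too, at 599.1 to 632.2 CPM against 140 to 144.1 CPM in PBS, and the summed epithelial markers also, at 27490 to 29460 CPM against 12260 to 13930 CPM. Their part in the levels of MMP2, MMP3 and TIMP1 was not tested.

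MMP9 rose with EGF from 8.42, 4.74 and 5.45 CPM in PBS to 26.7, 27 and 18.8 CPM (log2 fold change 1.97 ± 0.24, adjusted p = 2.8e-07). TGFB alone gave a like level, 26, 24 and 27.4 CPM (log2 fold change 2.06 ± 0.24, adjusted p = 8.41e-07). Both together gave 100.5, 118 and 94 CPM (log2 fold change 4.08 ± 0.25, adjusted p = 4.55e-12), more than 3 times any library outside this group. OSM went the other way. With OSM alone MMP9 was at 3.73, 3.52 and 3.43 CPM (log2 fold change -0.80 ± 0.28, adjusted p = 0.0171), a call lost without PBS replicate 1 (adjusted p 0.133) or OSM replicate 3 (0.051). The fall was larger where EGF was present. OSM added to EGF left 1.79, 2.12 and 0.86 CPM, the lowest group of the series (log2 fold change -3.92 ± 0.29, adjusted p = 9.76e-10), and OSM added to EGF with TGFB left 12.8, 18.5 and 14.9 CPM (log2 fold change -2.77 ± 0.23, adjusted p = 9.2e-09). On TGFB without EGF, OSM made no called difference: OSM with TGFB was at 19.9, 24.3 and 24.1 CPM (log2 fold change -0.18 ± 0.22, adjusted p = 0.524).

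MMP14 encodes the membrane-type metalloproteinase that cuts collagen at the cell surface and, together with TIMP2, activates pro-MMP2. Per length it was the most abundant protease of the list, and its changes were small and tight between replicates. The PBS libraries had 401, 401 and 379.7 CPM, and EGF was the ligand that lowered it, to 330.3, 321 and 262 CPM (log2 fold change -0.37 ± 0.08, adjusted p = 0.000186). OSM gave 552, 518 and 518 CPM (log2 fold change 0.43 ± 0.08, adjusted p = 4.92e-05) and TGFB 608, 578 and 572 CPM (log2 fold change 0.57 ± 0.08, adjusted p = 3.07e-06). Every mixture stood above PBS without overlap. EGF with TGFB reached 807, 841 and 705 CPM and OSM with TGFB 1027, 984 and 1048 CPM. The 3 ligands together gave the highest level, 1099.8, 1139 and 1069 CPM (log2 fold change 1.48 ± 0.08, adjusted p = 2.94e-14), above every library of the other groups but not called against OSM with TGFB (log2 fold change 0.11 ± 0.08, adjusted p = 0.246). EGF therefore lowered MMP14 on its own and raised it on TGFB (log2 fold change 0.42 ± 0.08, adjusted p = 4.77e-05).

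TIMP1, an inhibitor of secreted metalloproteinases that also has growth-promoting activity, followed OSM. It was at 157, 149 and 153 CPM in PBS and 2214, 1957 and 2487 CPM with OSM (log2 fold change 3.86 ± 0.09, adjusted p = 4.47e-20). EGF gave 726, 683 and 709.9 CPM (log2 fold change 2.21 ± 0.09, adjusted p = 5.36e-16), while TGFB gave 156, 137 and 149 CPM, a range that overlapped PBS (log2 fold change -0.05 ± 0.09, adjusted p = 0.69). The 4 groups with OSM were the 4 highest. OSM with TGFB held the highest libraries, 2797, 2758 and 3370.1 CPM (log2 fold change 0.42 ± 0.08, adjusted p = 0.000174 against OSM alone). Although EGF raised TIMP1 alone, it lowered it on OSM, to 1276, 1173 and 1106 CPM (log2 fold change -0.91 ± 0.08, adjusted p = 3.47e-09), and on OSM with TGFB, to 1833, 2003 and 1889 CPM (log2 fold change -0.64 ± 0.08, adjusted p = 9.95e-07). TIMP1 was also the member called between PBS and T0: T0 libraries had 594, 493 and 599 CPM, so it was lower after the 24 h in PBS (log2 fold change -1.88 ± 0.09, adjusted p = 1.31e-12). For that comparison 32.9% of all rows were called and 1 of 10 members.

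TIMP2, which inhibits broadly and is also the partner of MMP14 in activating pro-MMP2, rose with TGFB and fell with EGF and OSM, as MMP2 did. PBS libraries held 214, 213 and 209.7 CPM, TGFB libraries 379, 363 and 354 CPM (log2 fold change 0.78 ± 0.10, adjusted p = 7.32e-07). EGF lowered it to 129, 145 and 129 CPM and OSM to 104, 109 and 87.4 CPM (log2 fold change -0.66 ± 0.10, adjusted p = 1.76e-06 and log2 fold change -1.08 ± 0.10, adjusted p = 1.32e-09). EGF with OSM gave the lowest level, 65.7, 68.5 and 54.5 CPM (log2 fold change -1.76 ± 0.10, adjusted p = 1.58e-13). With all 3 ligands it was at 197, 208 and 173 CPM, each below the PBS libraries but not called (log2 fold change -0.14 ± 0.10, adjusted p = 0.19).

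TIMP3, the inhibitor that binds to the matrix and also blocks ADAM17 and several ADAMTS proteases, was at 874, 818 and 798 CPM in PBS and fell with EGF and OSM. EGF gave 313, 343 and 328 CPM (log2 fold change -1.34 ± 0.11, adjusted p = 3.85e-10), OSM 337, 358 and 272 CPM (log2 fold change -1.36 ± 0.11, adjusted p = 4.58e-10) and both together 226, 212 and 171 CPM (log2 fold change -2.03 ± 0.12, adjusted p = 2.65e-13). These 3 groups did not overlap PBS, and the pair did not overlap either single ligand. TGFB libraries, at 928, 874 and 855 CPM, overlapped PBS (log2 fold change 0.09 ± 0.11, adjusted p = 0.571). TGFB raised TIMP3 where EGF was present, on EGF alone (log2 fold change 0.58 ± 0.11, adjusted p = 0.000137) and on EGF with OSM (log2 fold change 0.82 ± 0.11, adjusted p = 1.4e-06), and not by the test on OSM alone (log2 fold change 0.10 ± 0.11, adjusted p = 0.509).

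Against PBS, the share of all rows called was itself large in each treatment apart from TGFB. The share of members called was higher, but with all 3 ligands it was near that of all rows, 8 of 10 beside 72.1%. The members were chosen with earlier results of these data known, so these counts are a description. MMP1, MMP3 and MMP10 had 0, 1 and 8 counts over the PBS libraries. Genes so scarce in PBS could pass the filter only through groups where they were high. Their calls as higher than PBS are therefore not independent of the filter. EGF had 10 of 10 members called, 5 higher and 5 lower, where 70.8% of all rows were called (33.8% higher, 37% lower). With 1 library left out, 8 to 10 members were called with EGF. OSM had 9 called, 5 higher and 4 lower, beside 61% of rows (32.4% higher, 28.5% lower). TGFB called the fewest rows of any treatment, 33.5%, with 18.9% higher and 14.7% lower, and 8 members, all 8 higher, including each of the 7 metalloproteinases. The calls of MMP1 and MMP3 rested on 9 and 15 counts over the TGFB group. Each was lost in some runs with 1 library left out, where 7 to 8 members were called. The median member stood at a log2 fold change of 1.89 in TGFB with MMP1 at its lower bound (2.20 as fitted), beside -0.01 over all rows. EGF with OSM had 10 members called, 5 higher and 5 lower (75% of rows, 36.6% higher and 38.4% lower). The mixtures with TGFB were mostly higher: 8 higher and 1 lower with EGF (71.3% of rows called, 35% higher, 36.3% lower), and 9 higher and 1 lower with OSM (63.5%, 33.1% and 30.5%). With all 3 ligands 7 were higher and 1 lower (72.1%, 36.6% and 35.5%), and TIMP3 was the lower member in each of these 3 mixtures. The median member log2 fold change was 0.80 with EGF, 0.43 with OSM, -0.47 with EGF and OSM, 1.77 with EGF and TGFB, 3.16 with OSM and TGFB and 1.68 with all 3, while the median of all rows lay between -0.07 and 0.00. These treatments share the PBS libraries, so their member values are not independent of each other.

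Comparisons of a mixture with the same mixture less 1 ligand contain no PBS library and give the effect of each ligand on the others. TGFB moved members in 1 direction. Added to EGF it raised 7 of 10 and lowered none (52.2% of rows called, 25.8% higher). Added to OSM it raised 9 (48.8% called, 24.6% higher), and added to EGF with OSM it raised all 10 (58.8% called, 30.4% higher). In the last of these the gelatinases moved furthest, MMP2 by 3.36 and MMP9 by 3.26 on the log2 scale. Of those 10 calls, that of MMP13 (log2 fold change 1.98) was lost without EGF+OSM replicate 1 (adjusted p 0.0981), replicate 2 (0.051) or replicate 3 (0.0866), or without EGF+OSM+TGFB replicate 1 (0.23) or replicate 2 (0.0727). That of MMP1 (0.96) was lost without EGF+OSM replicate 2 (0.0668) or replicate 3 (0.0646) or EGF+OSM+TGFB replicate 1 (0.445). Without that last library the log2 fold changes were 0.33 for MMP1 and 1.39 for MMP13.

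EGF had opposite effects on different backgrounds. The shares of rows given for added EGF and added OSM count calls in either direction. Shares split into higher and lower are not given here for these comparisons. Added to TGFB it changed all 10 members, 6 higher and 4 lower (66.8% of rows), with MMP1 (5.03, and 5.92 without TGFB replicate 2 or 4.39 with a prior count of 2) and MMP10 (4.43) the most raised and MMP13 (-5.02) the most lowered. Added to OSM it lowered 7 and raised MMP1 alone (59.4% of rows), a rise whose call was lost without OSM replicate 1 (adjusted p 0.0567), OSM replicate 2 (0.0549) or EGF+OSM replicate 1 (0.0514). Added to OSM with TGFB it lowered 7 and raised none (50.1% of rows). In that comparison the call of MMP9 (log2 fold change -0.57 ± 0.23, adjusted p = 0.0437) was fragile: leaving out any 1 of 12 libraries moved its adjusted p to between 0.0504 and 0.169.

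OSM added to EGF changed 9 members, 3 higher and 6 lower (33% of rows). MMP3 (3.20), MMP14 (0.92) and TIMP1 (0.75) rose, while MMP9 (-3.92), MMP10 (-2.38) and MMP1 (-2.12) fell most. The call of MMP2 there (log2 fold change -0.40 ± 0.15, adjusted p = 0.0433) was lost without EGF replicate 2 (0.192) or replicate 3 (0.0747), TGFB replicate 3 (0.0502), or EGF+OSM replicate 2 (0.0943) or replicate 3 (0.262). OSM added to TGFB changed 7, 5 higher and 2 lower (54.2% of rows), the lower ones being TIMP2 and TIMP3. OSM added to EGF with TGFB changed 8, 4 higher and 4 lower, where 24.8% of rows were called.

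**Figure D2:**
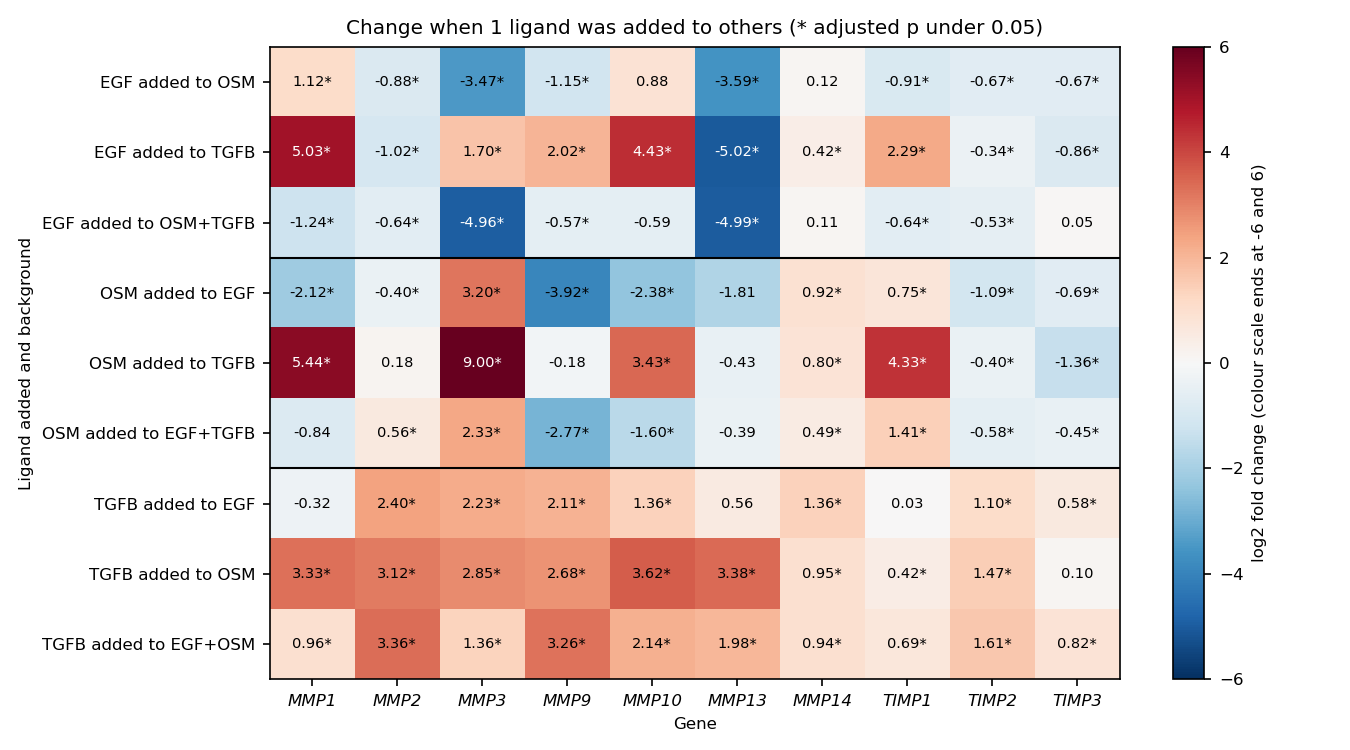
log2 fold change of each gene (columns) when 1 ligand was added to the others (rows), in colour and as numbers, with an asterisk where the adjusted p was under 0.05. The bottom block, TGFB added, holds no called fall, and in the top block, EGF added to OSM with TGFB, MMP3 is at -4.96 and MMP13 at -4.99.

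Whether a pair acted as the sum of its ligands on the log2 scale was measured as the departure from additivity. This is the log2 fold change of the pair minus those of its single ligands, all against PBS. Where there is no departure, the folds of the single ligands multiply. The sum named below is that of log2 responses and not of CPM. Shares of rows are of departures called in either direction. EGF with OSM departed in 7 of 10 members (36.5% of rows), and the protease departures that were called were downward apart from MMP14. The departure was -3.12 ± 0.41, adjusted p = 3.38e-06 for MMP9 and -6.22 ± 0.79, adjusted p = 2.16e-06 for MMP10, and TIMP1 reached -3.11 ± 0.12, adjusted p = 5.71e-15. For MMP1 and MMP3, with 0 and 1 counts in PBS, the departure was called and downward, but its size depended on the prior count and is not a measure of fold: it was -8.91 for MMP1 and -6.53 for MMP3 as fitted, and -5.03 and -4.66 with a prior count of 2. That of MMP10, with 8 counts in PBS, was -5.49 with a prior count of 2 and -7.04 without PBS replicate 1. MMP14 (0.49 ± 0.11, adjusted p = 0.00111) and TIMP3 (0.67 ± 0.16, adjusted p = 0.00171) departed upward.

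EGF with TGFB departed in 5 members (27.7% of rows). MMP13 was the furthest below the sum among genes well detected in PBS (-3.67 ± 0.74, adjusted p = 0.000793) and MMP14 the furthest above (0.79 ± 0.11, adjusted p = 1.31e-05), while MMP9, at its highest level with this pair, departed by 0.05 ± 0.32, adjusted p = 0.943. The departure of MMP1 was called and downward (-5.00 as fitted, -1.66 with a prior count of 2). MMP10 (-2.66 ± 0.85, adjusted p = 0.0228) was no longer called without PBS replicate 2 (adjusted p 0.093) or PBS replicate 3 (0.0693), and was -3.48 without PBS replicate 1 and -1.96 with a prior count of 2. Below the log2 sum, MMP10 still averaged 23.3 CPM with the pair, against 9.05 CPM with EGF alone and 1.08 CPM with TGFB alone. TIMP3 (0.48 ± 0.16, adjusted p = 0.0237) was no longer called without PBS replicate 1 (0.0569), EGF replicate 1 (0.0559), TGFB replicate 3 (0.054), EGF+TGFB replicate 1 (0.0879) or EGF+TGFB replicate 2 (0.0847). OSM with TGFB departed in 4 members, all upward (21.5% of rows): MMP2 (0.79 ± 0.17, adjusted p = 0.0023), TIMP2 (0.69 ± 0.14, adjusted p = 0.000807), TIMP1 (0.47 ± 0.12, adjusted p = 0.00568) and MMP14 (0.37 ± 0.11, adjusted p = 0.0175). The call of MMP14 was lost without OSM replicate 2 (0.0526) or OSM+TGFB replicate 3 (0.0541). For MMP3 the departure was not called (adjusted p = 0.69), and its sign as fitted depended on the prior count.

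**Figure D3:**
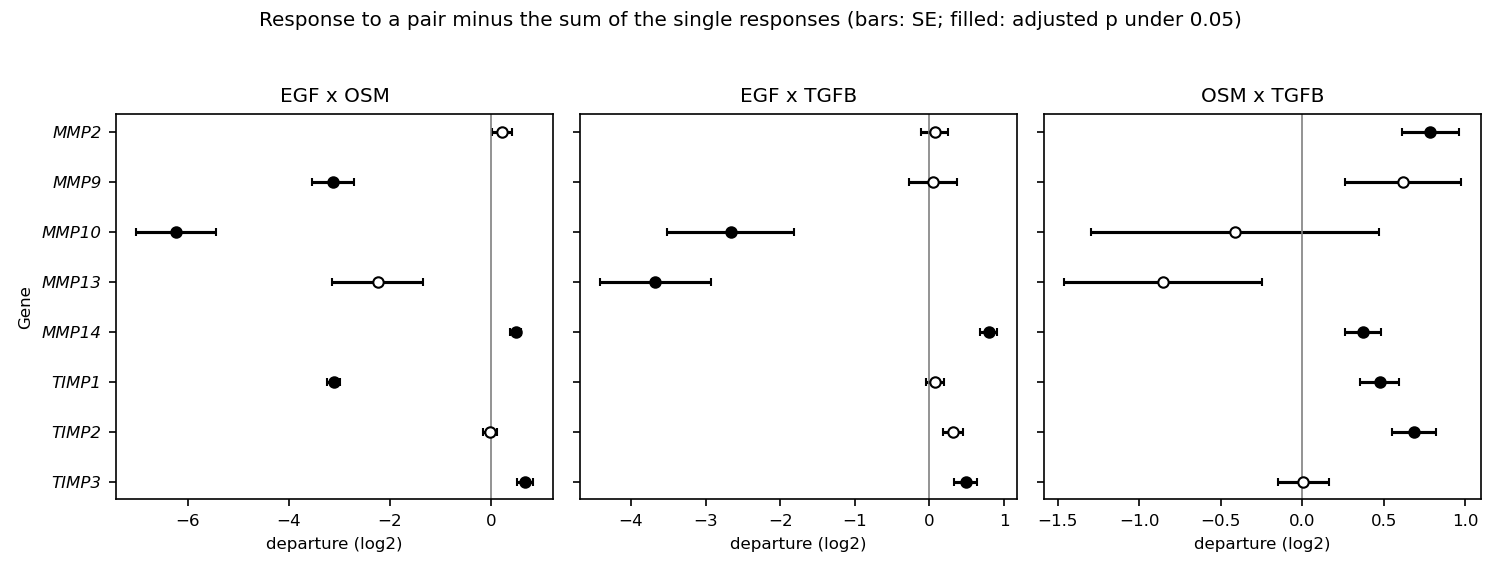
Departure of each pair from the sum of its single-ligand responses (log2, horizontal axis, a different range in each panel) for the 8 genes other than MMP1 and MMP3, of which MMP10 had 8 counts over the PBS group; bars are SE and filled points have an adjusted p under 0.05. With EGF and OSM, MMP9 lies at -3.12, MMP10 at -6.22 and TIMP1 at -3.11, and MMP14 lies above 0 with all 3 pairs.

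With all 3 ligands the log2 response departed from the sum of the 3 single log2 responses in all 10 members, beside 45.9% of all rows. It was below the sum for 6, among them MMP9 (-1.93 ± 0.51, adjusted p = 0.0037), MMP13 (-4.49 ± 1.03, adjusted p = 0.00105, or -5.12 without EGF+OSM+TGFB replicate 1) and TIMP1 (-2.37 ± 0.17, adjusted p = 1.77e-10). It was above the sum for MMP2 (1.24 ± 0.25, adjusted p = 0.000315), MMP14 (0.86 ± 0.15, adjusted p = 7.34e-05), TIMP2 (0.82 ± 0.19, adjusted p = 0.00105) and TIMP3 (1.39 ± 0.22, adjusted p = 1.64e-05). Above the sum does not mean above each single ligand. MMP14 had its highest level with all 3 ligands. MMP2, TIMP2 and TIMP3 averaged 42, 193 and 357 CPM there, against 57.7, 365 and 885 CPM with TGFB alone.

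Summed protease RNA was set against summed inhibitor RNA in each library, as the total CPM per kb of the 7 metalloproteinases over that of the 3 TIMPs. The order of the groups depended on how the genes were weighted. By these sums the ratio was highest with TGFB, 0.396 ± 0.00385 (SD, n = 3), and lowest with OSM, 0.0517 ± 0.00642. PBS stood at 0.258 ± 0.00604 and T0 at 0.134 ± 0.0126. With EGF it was 0.0986 ± 0.0126, close to EGF with OSM (0.0991 ± 0.00336) and OSM with TGFB (0.0886 ± 0.0106). EGF with TGFB gave 0.250 ± 0.0204, which overlapped PBS, and the 3 ligands 0.124 ± 0.00386. MMP14 made up 75.8% (EGF with TGFB) to 97.7% (EGF with OSM) of the protease sum by group mean, and TIMP1 39.6% (TGFB) to 96.7% (OSM) of the inhibitor sum, and in the 4 groups with OSM TIMP1 was 95% to 96.7% of it. The 3 groups with the largest protease sums, OSM with TGFB (353 ± 11.3 CPM per kb), all 3 ligands (323 ± 11.3) and EGF with TGFB (279.5 ± 26.5), differed widely in TIMP sum, at 4019 ± 437, 2612 ± 114 and 1120 ± 23.4 CPM per kb. RNA ratios do not give protein ratios, and the sums take no account of which TIMP inhibits which enzyme. With the median log2 level of the 7 and of the 3 genes in place of their sums, OSM with TGFB had the highest log2 ratio (-2.93, against -3.50 with sums) and T0 (-9.55) and PBS (-9.29) the lowest. The direction against PBS then turned: by medians all 7 treatments lay above PBS, EGF at -5.32, OSM at -5.51 and EGF with OSM at -6.08 among them, while by sums TGFB was the treatment whose mean did. The medians compare different scarce genes. By group mean the middle protease was MMP13 in PBS (0.283 CPM per kb), MMP1 with EGF (1.66) and MMP9 with OSM (1.52). With sums not divided by length, EGF with TGFB was highest (-0.67, against -1.03 for TGFB) and OSM again lowest (-2.26).

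**Figure D4:**
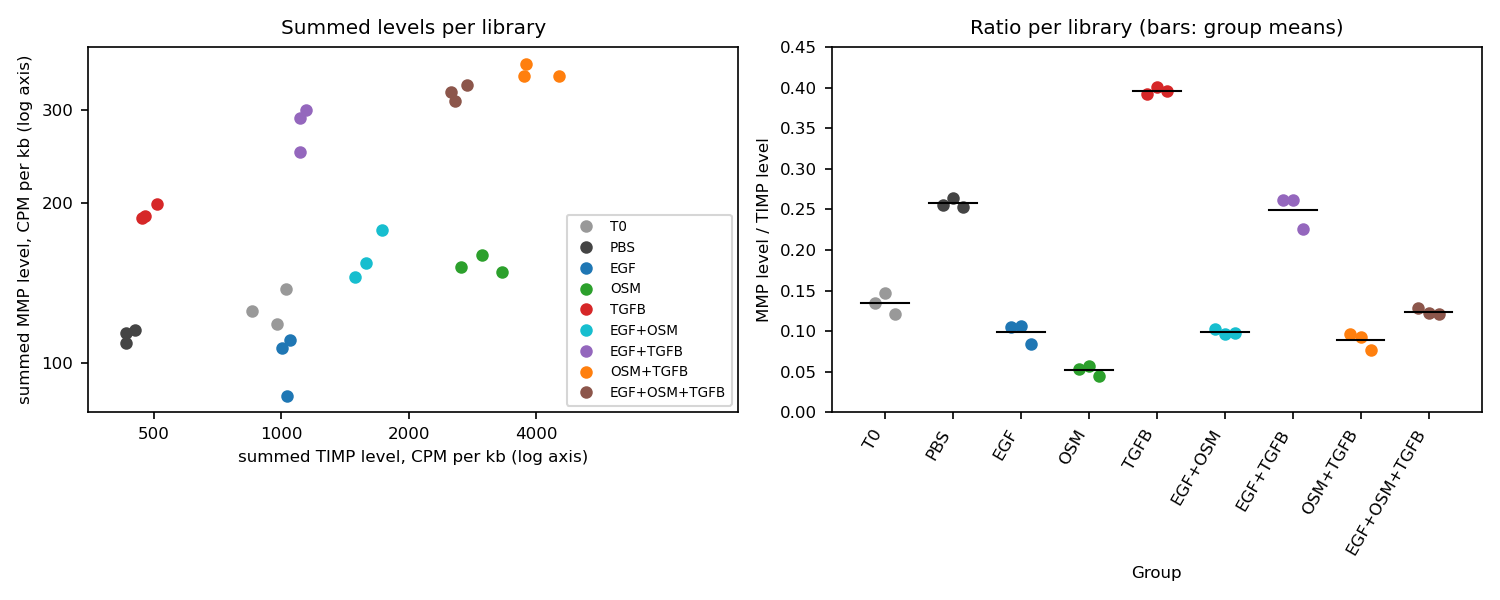
Left, summed level of 7 metalloproteinases against summed level of 3 TIMPs per library (CPM per kb, log axes); right, their ratio per library, with bars for group means. By these sums the TGFB libraries have the highest ratio (mean 0.396) at a TIMP sum near that of PBS and the OSM libraries the lowest (mean 0.0517), but with median log2 levels OSM+TGFB is highest and T0 lowest, and without division by length EGF+TGFB is highest.

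Other genes of the system were read from fixed lists. Of 18 further metalloproteinases and inhibitors 11 could be tested, and TGFB raised 5 and lowered 1 (median log2 fold change 0.58, all rows -0.01), where 18.9% of all rows were higher and 14.7% lower. EGF raised 3 and lowered 4, where 33.8% of all rows were higher and 37% lower. MMP7, matrilysin, an epithelial protease, went from 39.3 ± 5.08 CPM (SD, n = 3) in PBS to 0.675 ± 0.118 with EGF (log2 fold change -5.86, adjusted p = 6.47e-13) and 1.31 ± 0.385 with OSM (log2 fold change -4.88, adjusted p = 6.85e-12). MMP28, epilysin, fell to 7.0 ± 3.7 CPM with EGF and OSM from 106 ± 10.6 (log2 fold change -3.94, adjusted p = 4.63e-12). MMP19 rose to 18 ± 0.857 CPM with OSM and TGFB from 1.57 ± 0.277 (log2 fold change 3.51, adjusted p = 3.22e-14). These lists were chosen with earlier results of the same data known, and their counts support nothing beyond themselves.

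Of 17 proteases and inhibitors upstream of metalloproteinase activation 15 were tested. With EGF and TGFB 9 rose and 6 fell (median log2 fold change 0.44), beside 35% of all rows higher and 36.3% lower. SERPINE2, a protease inhibitor, rose from 2.31 ± 0.296 to 263 ± 30.9 CPM with OSM and TGFB (log2 fold change 6.83, adjusted p = 1.2e-17). PLAU, urokinase, whose product plasmin activates several zymogens, rose with all 3 ligands from 75.9 ± 5.32 to 1064 ± 71 CPM (log2 fold change 3.81, adjusted p = 3.08e-16). The kallikrein KLK7 fell in the same group, from 168 ± 39.1 to 6.61 ± 2.7 CPM (log2 fold change -4.67, adjusted p = 1.05e-08).

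Among 13 tested of 15 related ADAM and ADAMTS proteases, OSM raised 10 and lowered 1 (median log2 fold change 0.90; 32.4% of all rows higher, 28.5% lower) and TGFB raised 8 and lowered none (0.53; 18.9% of all rows higher, 14.7% lower). ADAM19 rose from 3.28 ± 0.211 to 588 ± 14.5 CPM with all 3 ligands (log2 fold change 7.48, adjusted p = 9.99e-19), ADAMTS6 from 0.619 ± 0.0925 to 37.8 ± 1.75 CPM (log2 fold change 5.92, adjusted p = 3.06e-17) and ADAM12 from 5.2 ± 0.62 to 227 ± 13 CPM (log2 fold change 5.45, adjusted p = 4.14e-19). Of 17 tested matrix substrates of 21, OSM with TGFB raised 14 and lowered 2 (median 2.86; 33.1% of all rows higher, 30.5% lower). TNC, tenascin C, went from 12.5 ± 2.07 to 3889 ± 264 CPM (log2 fold change 8.28, adjusted p = 2.09e-18) and FN1, fibronectin, from 132 ± 18.4 to 8758 ± 452 CPM (log2 fold change 6.05, adjusted p = 6.18e-16). Both are cut by MMP3, which had its highest level in the same group. NID1, a basement-membrane linker, was among those that fell, from 3.15 ± 0.241 to 0.0182 ± 0.0172 CPM with EGF and TGFB (log2 fold change -7.26, adjusted p = 2.25e-10).

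All 17 AP-1 and ETS factors, families that bind many metalloproteinase promoters, were tested. EGF raised 7 and lowered 9 (median -0.58), beside 33.8% of all rows higher and 37% lower, and OSM raised 11 and lowered 4 (1.06), beside 32.4% and 28.5%. FOSL1 rose with EGF from 8.85 ± 1.07 to 89.5 ± 3.18 CPM (log2 fold change 3.34, adjusted p = 1.87e-15), and was 123 ± 13.1 CPM with EGF and OSM. ETV4 was 26 ± 1.35 CPM with EGF and 2.63 ± 0.764 with OSM and TGFB. ETV5 rose with EGF from 2.69 ± 0.264 to 45.8 ± 2.97 CPM (log2 fold change 4.08, adjusted p = 3.74e-14). Whether any of these factors acts on the members was not tested.

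The genes whose log2 CPM followed each member most closely over the 27 libraries were read among rows averaging 1 CPM or more. The 27 points share 9 treatments, and the correlations are a description. MMP1 was most like MMP10 (Pearson r = 0.934), its neighbour in the cluster, then BICD1 (0.929). MMP3 and MMP10, the sequence-related pair, had r = 0.348, and MMP13 had r = -0.05 with MMP1 and 0.399 with MMP3. MMP2 was most like PLEKHA1 (0.977) and among members TIMP2 (0.827). MMP3 was most like AMPH (0.982), MMP9 INHBA (0.947), MMP10 FLRT2 (0.943), MMP13 DIRAS1 (0.961) and MMP14 DRAM1 (0.956). Of the inhibitors, TIMP1 was most like SFXN5 (0.976), TIMP2 GSN (0.963) and TIMP3 GPR1 (0.974), and TIMP1 and TIMP3 ran opposite to each other (r = -0.787), the lowest value among the 45 pairs of members.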

How the data were processed

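PolyA RNA libraries from MCF10A cells, 27 in all, were made with a stranded kit, per the labels' protocols. The authors deposited a table of estimated counts, whole numbers per gene, for all 27 libraries, with Ensembl identifiers and symbols. The submitters' processing notes name Trim Galore 0.4.3, cutadapt 1.10, FastQC 0.11.5, kallisto 0.46.2, R 3.5.0 and the builds GRCh38.p5 and hg38, without roles; annotation version, strand setting and rounding are not given in the sources used here. Rows without a symbol held 0.324% of counts. Totals were 30.1 to 52.9 M counts, and counting error is a lower limit since no molecular identifiers are given.

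From these counts, edgeR 4.0.16 (R 4.3.3) kept 16611 rows by filterByExpr, scaled by TMM (factors 0.867 to 1.12) and fitted 1 mean per group over all 27 libraries (robust quasi-likelihood, 18 residual degrees of freedom). Each of 21 comparisons was tested by glmQLFTest, p-values were adjusted across all tested rows (Benjamini-Hochberg), and genes were called at an adjusted p under 0.05. The SE is the log2 fold change over the square root of F. CPM use TMM-scaled totals, and means are over 3 libraries. CPM per kb divide by the canonical transcript length. Folds against a group at 0 use a floor of 3 counts over the group. Replicate pairs differed by more than sampling noise (chi-square per degree of freedom 7.50 to 30.9), so none was treated as 1 library deposited more than once; this does not show that the cultures were separate. Libraries were grouped by title. Likeness used log2(CPM + 0.5). Alternatives were upper-quartile scaling, DESeq2 1.42.0, no filter, the replicate number as a block, summed duplicate rows, a threshold of 0.01, a prior count of 2 and counts not divided by length (the last 2 added after seeing the data), and each library left out. The fit was tested on simulated data. All 10 members are named; of related lists, up to 4 genes with the largest changes in a comparison, apart from 1 gene that is not reported here. Members and lists were chosen with earlier results of these data known. Protein sequences were not used here.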

Additional observations from a re-analysis of the deposited data

Results flagged for a closer look

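For 6 genes, 1 ligand had called effects of opposite sign alone and on another ligand, with the difference itself tested as the departure of the pair from additivity. The departure was called in 36.5% of all rows for EGF with OSM and 27.7% for EGF with TGFB. How many of all rows met the full rule was not counted, so the number is not a trait of these genes. EGF raised TIMP1 on PBS (2.21) and lowered it on OSM (-0.91), a difference of -3.11 (adjusted p = 5.71e-15). EGF likewise raised MMP9 on PBS (1.97) and lowered it on OSM (-1.15), a difference of -3.12 (adjusted p = 3.38e-06). For MMP3 the difference between EGF on PBS and EGF on OSM was -6.53 (adjusted p = 0.000168), and its rise with EGF alone rested on 6, 2 and 4 counts and was not called with rows of 1 symbol summed (adjusted p = 0.0523), which leaves 5 genes. OSM raised MMP10 on PBS (3.85) and lowered it on EGF (-2.38), a difference of -6.22 (adjusted p = 2.16e-06). For MMP1 the difference between OSM on PBS and OSM on EGF was -8.91 (adjusted p = 1.86e-07), with 0 counts in PBS. EGF lowered MMP14 on PBS (-0.37) and raised it on TGFB (0.42), a difference of 0.79 (adjusted p = 1.31e-05). All values are on the log2 scale from edgeR's quasi-likelihood test, with 3 libraries per group. Sizes for MMP1, MMP3 and MMP10 depend on the prior count.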

How the results depend on the processing

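Of 210 log2 fold changes of members, 166 were called and none of these changed sign in any alternative run. The count of members called stayed within 1.5 times of its value in every comparison and alternative, except PBS against T0, which went from 1 to 2 with the replicate block and ranged from 1 to 2 with 1 library left out (2 without T0 replicate 1, T0 replicate 3 or EGF replicate 3), and the departures of EGF with TGFB, 5 at an adjusted p under 0.05 and 3 under 0.01. Sign changes occurred for 15 uncalled values. With 1 library left out, the ranges of those that crossed 0 were -0.029 to 0.21 (MMP2), 0 to 2.23 (MMP3), -0.41 to 0.23 (MMP9) and -0.041 to 0.016 (TIMP2) for PBS minus T0; -0.049 to 0.044 for TIMP1 with TGFB added to EGF; -0.027 to 0.15 and -0.024 to 0.13 for TIMP3 with TGFB added to OSM and EGF added to OSM with TGFB; -0.13 to 0.083 for the departure of TIMP2 with EGF and OSM; -0.05 to 0.16 (MMP2) and -0.23 to 0.21 (MMP9) for EGF with TGFB; and -1.23 to 0.030 (MMP10) and -0.12 to 0.062 (TIMP3) for OSM with TGFB. The TIMP2 departure was also 0.039 with upper-quartile scaling, 0.016 without the filter and 0.0036 with DESeq2. With a prior count of 2, departures for EGF with TGFB became 0.15 (MMP3) and for OSM with TGFB 1.82 (MMP1), 1.22 (MMP3) and 0.24 (MMP10).

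The log2 balance of proteases over inhibitors moved in all 9 groups under both other definitions. With the median log2 level per gene it was -9.55 (T0), -9.29 (PBS), -5.32 (EGF), -5.51 (OSM), -5.14 (TGFB), -6.08 (EGF+OSM), -3.72 (EGF+TGFB), -2.93 (OSM+TGFB) and -4.19 (all 3). Not divided by length it was -1.71, -1.53, -1.76, -2.26, -1.03, -1.32, -0.67, -1.58 and -1.07 in the same order.

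Upper-quartile scaling moved the median of all rows by up to -0.102 against PBS (all 3 ligands), under which TIMP2 (-0.24, adjusted p = 0.0302) and MMP13 (-1.28, adjusted p = 0.043) in that group were called lower. With rows sharing a symbol summed, MMP3 with EGF (adjusted p = 0.0523) and MMP13 with TGFB added to EGF and OSM (0.058) lost their calls. Without the filter the calls of MMP3 (adjusted p = 0.0502) and MMP13 (0.0606) with EGF, MMP9 with EGF added to OSM and TGFB (0.107), MMP2 with OSM added to EGF (0.0727), MMP13 with TGFB added to EGF and OSM (0.0787) and the departure of MMP10 with EGF and TGFB (0.0582) were lost. DESeq2 also lost that of MMP9 (0.073), and called MMP13 for all 3 ligands against PBS (0.0236), for OSM added to EGF (0.0171) and for the departure of EGF with OSM (0.0155), and MMP10 for EGF added to OSM (0.0323).

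Replicate numbers are shared by the groups, with nothing in the labels saying that they mark a common batch. Same-numbered pairs of libraries had correlations of deviations from -0.0741 to 0.289 (median 0.0893), 42 of 108 over 0.1, and each of the 27 libraries correlated best with its own number on average, a hint from the data and not the design. With the number as a block, MMP14 (PBS minus T0, adjusted p = 0.0184), TIMP2 (all 3 ligands, 0.038; departure of EGF with TGFB, 0.0071), MMP13 (all 3 ligands, 0.0144; OSM added to EGF, 0.0215; departure of EGF with OSM, 0.0178), MMP10 (EGF added to OSM, 0.0253; to OSM with TGFB, 0.0343) and MMP1 (OSM added to EGF with TGFB, 0.0326) gained calls and MMP2 (OSM added to EGF, 0.0513) lost its own. The cause was not tested for any of these changes. Depth limits MMP1 and MMP3, with at most 1 count over the PBS libraries, and MMP10, with 8.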
